A study of Mus musculus with 4 samples.

Results

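Reads on 8 structured noncoding RNAs were followed in ribosome-protected fragments from proliferating mouse primary myoblasts. These were the Y RNAs Rny1 and Rny3, the RNase MRP RNA Rmrp, the RNase P RNA Rpph1, its copy Rprl3, the 7SK RNA Rn7sk, the vault RNA Vaultrc5 and the telomerase RNA Terc. They were chosen by gene symbol, which matched 10 of the 55573 rows of the table, because Rmrp and Terc each have 2 rows. Of these 10 rows, 6 had reads, and all 6 were tested. The cells had grown out of hind-limb muscle and were collected on day 2 in medium with FGF. The mice were 3 weeks old. All 4 libraries were made from cells treated with cycloheximide, which holds ribosomes on mRNA, and the sources differ on how long this lasted. There were 2 wild-type (WT) libraries and 2 libraries whose labels give a knockout of the translation factor eIF5A (eIF5A-KO). According to the study's methods, the knockout mice were Pax7CreERT2/+;eIF5A f/f, in which tamoxifen turns on Cre in Pax7-expressing satellite cells. Cells of other origin in such a culture would keep the gene. The WT controls are given in one place as Pax7CreERT2/+ and in another as Pax7+/+;eIF5A f/f. It was not stated whether the replicates came from separate animals or cultures, so the p-values measure only the spread between these libraries.

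None of these RNAs is translated. Y RNAs are short transcripts of RNA polymerase III that are bound by Ro60 and La (Ssb) and take part in RNA quality control. RNase P and RNase MRP are related ribonucleoproteins: the former removes the 5′ leader of tRNA precursors, and the latter cuts precursors of ribosomal RNA. 7SK RNA holds the elongation kinase P-TEFb in an inactive form, vault RNAs belong to the vault, a large barrel of Mvp protein, and telomerase RNA carries the template for telomeric repeats. Libraries of nuclease-resistant fragments commonly contain pieces of such RNAs, so a read here is a sequenced protected fragment and not evidence of a translating ribosome.

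The sequences of both Y RNAs are shown because their levels differed by a wide margin. They are read 5′ to 3′ from GENCODE M21 (build GRCm38). Capitals mark runs of at least 8 aligned bases that are identical in both.
Rny1: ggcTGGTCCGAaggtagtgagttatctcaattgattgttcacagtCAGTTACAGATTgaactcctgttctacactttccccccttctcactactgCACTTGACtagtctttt
Rny3: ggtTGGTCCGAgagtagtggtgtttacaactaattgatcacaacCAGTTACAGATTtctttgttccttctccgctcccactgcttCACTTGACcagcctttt
Rny1 (ENSMUSG00000065701) lies at chr6:47788069-47788180 on the minus strand and is 112 bases long. Rny3 (ENSMUSG00000064945) lies at chr6:47781624-47781725 on the plus strand and is 102 bases long. Each is annotated as a single-exon misc_RNA gene. In the alignment, 81 bases were identical, 21 were mismatched and 10 faced a gap, an identity of 72.3%. The longest identical run was 12 bases, positions 46 to 57 of Rny1, and no stretch of 28 bases, about the length of a ribosome footprint, occurred in both.

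A second gene resembles Rny1 far more closely. It is Gm26168 (ENSMUSG00000065721), a misc_RNA gene at chr6:122623547-122623658 on the plus strand, shown here with its 61-base run shared with Rny1 in capitals.
Gm26168: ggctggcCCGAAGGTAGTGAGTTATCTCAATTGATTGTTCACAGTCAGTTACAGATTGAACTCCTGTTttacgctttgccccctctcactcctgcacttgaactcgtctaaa
Rny1 and Gm26168 had 102 identical bases, 9 mismatches and 2 gap bases, an identity of 90.3%. Of the 85 stretches of 28 bases in Rny1, 34 occurred in Gm26168. A read from the shared run could belong to either gene, and how such reads were assigned is not given in the sources used here.

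Rny1 had the highest RPKM (reads per kilobase of gene, scaled by the authors' library size) of all 55573 rows in each of the 4 libraries. By reads, without division by length, it ranked 3 and 2 in WT libraries 1 and 2 and 1 in both KO-labelled libraries. Its value was 802732 and 1863886 RPKM in WT libraries 1 and 2, and 903410 and 1102551 RPKM in KO-labelled libraries 1 and 2. These came from 54201 and 98352 reads against 91771 and 99740 reads. WT library 1 had the lowest value and WT library 2 the highest, and both KO-labelled libraries lay between them. On the log2(RPKM + 1) scale the fold change (KO label minus WT) was -0.29 (standard error 1.83), with a 95% interval from -4.79 to 4.21 and an adjusted p of 0.969 in limma. Without WT library 2 it was 0.31. The standard error follows the variance trend that limma fits over all genes, which Rny1, as the highest of them, lies at the end of. Without the trend it was 0.55, with an interval from -1.71 to 1.12, and when every gene above 0 entered the fit it was 25.9. The adjusted p of Rny1 was 0.343 or more under each of the 16 alternatives tried. Among them, quantile normalization gives the highest row of every library the same value, so its fold change of 0 for Rny1 was fixed in advance.

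Rny1 dominated the reads of its group. It held 95.01% and 98.2% of the reads on the 8 RNAs in the WT libraries and 97.5% and 98.8% in the KO-labelled ones. The 8 RNAs together held 99.2% to 99.6% of the reads on the 584 misc_RNA and ribozyme rows. As a share of all recovered reads, they took 8.80% and 15.6% in WT and 13.4% and 15.5% under the KO label. Without Rny1 these shares were 0.439%, 0.286%, 0.336% and 0.189% in the same order. For Rny1 alone the share was 2.35 percentage points higher under the KO label (exact two-sided permutation test, p = 0.667, where 0.33 is the smallest p that 2 libraries against 2 can give). That direction rested on WT library 1, since without it the difference was -1.12 points, and it turned to -0.74 points over reads outside the mitochondrial rRNAs. With microRNA reads left out as well it was -4.17 points (exact permutation p = 1).

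**Figure D1:**
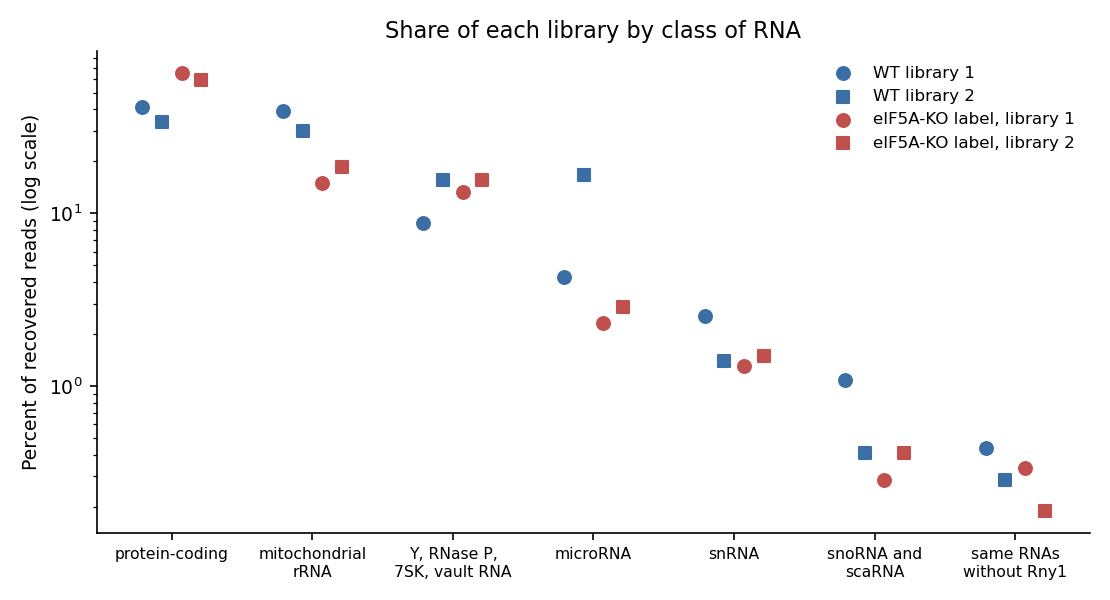
Percent of the recovered reads of each library (log scale) on classes of RNA, with blue for WT, red for the KO label, circles for library 1 and squares for library 2. The Y, RNase P, 7SK and vault RNAs took 8.80% to 15.6% of reads with overlapping groups, whereas the protein-coding share was 33.9% to 41.5% in WT and 59.2% to 65.4% under the KO label.

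Rny3 was the second of these RNAs by RPKM in every library, far below Rny1. Its values were 8863 and 7928 RPKM in WT and 16322 and 4418 RPKM under the KO label, from 545, 381, 1510 and 364 reads. The highest and the lowest value both carried the KO label, so the groups overlapped. Its log2 fold change was 0.02 (standard error 0.96), with a 95% interval from -2.34 to 2.38 and an adjusted p of 0.996. It was -0.92 without KO-labelled library 1, -0.06 without WT library 2, 1.71 under quantile normalization and 1.32 when scaled on snRNA, snoRNA and scaRNA genes.

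Ratios of reads per base within a library do not depend on the scaling between libraries. Rny1 exceeded Rny3 by 90.6-fold and 235-fold in WT and by 55.3-fold and 250-fold under the KO label. Library 1 of each group had the lower ratio, and the groups overlapped (log2 difference -0.31, exact permutation p = 1). It reversed to 0.38 without WT library 2 and to 0.77 without KO-labelled library 1. The ratio to the look-alike Gm26168 varied less. Rny1 exceeded it by 347-fold and 277-fold in WT and by 272-fold and 294-fold under the KO label, a narrow range in which the groups again overlapped (exact permutation p = 0.667). Reads on Gm26168 numbered 156, 355, 337 and 339, or 0.288% to 0.367% of those on Rny1. The log2 fold change of Gm26168 itself was -0.16 (standard error 0.83).

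The RNase P RNA and its copy were both lower in the KO-labelled libraries, with the lowest log2 fold changes among these RNAs. Neither passed an adjusted p of 0.05 in limma on RPKM, and both passed it in limma-voom on the recovered reads. Rpph1 (ENSMUSG00000092837), the catalytic RNA of RNase P, is annotated as a ribozyme at chr14:50807449-50807767 on the minus strand. Rprl3 (ENSMUSG00000088025), an RNase P RNA-like gene, is annotated as a ribozyme at chr8:3803069-3803358 on the minus strand. The 5′ parts of both are shown, with capitals for runs of at least 28 identical aligned bases, long enough that a footprint could come from either.
Rpph1, bases 1 to 240: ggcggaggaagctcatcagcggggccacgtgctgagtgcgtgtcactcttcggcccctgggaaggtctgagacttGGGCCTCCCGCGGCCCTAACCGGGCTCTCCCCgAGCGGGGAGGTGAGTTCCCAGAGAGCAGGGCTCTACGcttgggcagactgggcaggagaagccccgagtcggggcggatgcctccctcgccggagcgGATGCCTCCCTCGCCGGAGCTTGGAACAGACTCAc
Rprl3, bases 1 to 230: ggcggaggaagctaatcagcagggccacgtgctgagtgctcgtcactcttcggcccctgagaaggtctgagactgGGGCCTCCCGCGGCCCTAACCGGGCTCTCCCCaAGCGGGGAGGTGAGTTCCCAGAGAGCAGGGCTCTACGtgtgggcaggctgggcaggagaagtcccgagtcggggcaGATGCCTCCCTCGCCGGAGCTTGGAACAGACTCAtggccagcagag
Over their whole lengths they had 246 identical bases, 43 mismatches and 31 gap bases, an identity of 76.9%. Of the 292 stretches of 28 bases in Rpph1, 22 occurred in Rprl3. The counts of these genes are therefore uncertain to the extent that reads from the shared runs were split between them.

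Rpph1 had 2262 and 2974 RPKM in WT and 525 and 605 RPKM under the KO label. The reads behind these values were 435 and 447 against 152 and 156. Both KO-labelled libraries lay below both WT libraries, and the gap between the groups was larger than the range within either. The WT mean was 4.63 times that of the KO-labelled libraries in RPKM and 3.00 times in share of reads. This was a log2 fold change of -2.20 (standard error 0.60), with a 95% interval from -3.68 to -0.71 (unadjusted p = 0.0112, adjusted p = 0.635 in limma). It was -0.81 under quantile normalization (unadjusted p = 0.137, adjusted p = 0.686 in limma) and -0.90 when scaled on snRNA, snoRNA and scaRNA genes (unadjusted p = 0.370, adjusted p = 0.492).

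Rprl3 had 1567 and 1039 RPKM in WT and 205 and 277 RPKM under the KO label, from 274, 142, 54 and 65 reads. The groups did not overlap, and the gap between them was larger than the range within either group. The WT mean was 5.40 times that of the KO-labelled libraries in RPKM and 3.64 times in share of reads. This was a log2 fold change of -2.41 (standard error 0.57), with a 95% interval from -3.82 to -1.005 (unadjusted p = 0.00589, adjusted p = 0.567). Under the same pair of alternative scalings it was -1.46 (unadjusted p = 0.0303, adjusted p = 0.671) and -1.12 (unadjusted p = 0.245, adjusted p = 0.383). The ratio of Rpph1 to Rprl3 per base was 1.44 and 2.86 in WT and 2.56 and 2.18 under the KO label, with overlapping groups (exact permutation p = 1). A further copy, Rprl2, 92.1% identical to Rprl3, had 11 and 24 reads in WT and 1 read in each KO-labelled library. Its fitted log2 fold change of -4.40 had an adjusted p of 0.126, and its KO-labelled values rest on single reads.

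Most of Rpph1 is also annotated as part of a protein-coding gene. Exons of Ccnb1ip1 on the same strand cover 233 of its 319 bases, and 86 bases lie outside them. Ccnb1ip1 was listed at 0 in all 4 libraries. If reads that fall on overlapping genes were left out of the counts, the values of Rpph1 would come from the uncovered bases only, and the RPKM, which divides by the whole length, would be too low in every library. This was not tested.

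Rmrp and Terc were listed at 0 in all 4 libraries. The Rmrp rows (ENSMUSG00000088088, 271 bases, and ENSMUSG00000115420, 281 bases) lie at chr4:43492788-43493058 and chr4:43492783-43493063 on the minus strand, the former wholly inside the latter. Exons of Ccdc107 on the opposite strand cover 124 bases of both. The Terc rows (ENSMUSG00000118406, 397 bases, and ENSMUSG00000064796, 423 bases) lie at chr3:96414437-96414833 and chr3:96414437-96414859 on the minus strand and overlap in the same way. Such nesting went with a listing at 0 throughout the table. Of the 139 single-exon rows wholly inside another single-exon row on the same strand, 0 had any read, and the same held for the 95 rows inside one on the opposite strand only. Of the 22135 single-exon rows inside no such row, 2979 (13.5%) had reads. For the small RNA biotypes these counts were 0 of 126, 0 of 64 and 644 of 5544 (11.6%). The 0 of Rmrp and Terc is therefore not read as absence of the RNA, and no fold change was computed for them.

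The 7SK RNA was lower under the KO label in the deposited scaling, with WT library 1 standing apart. Rn7sk (ENSMUSG00000065037) is a misc_RNA gene of 331 bases at chr9:78175303-78175633 on the minus strand. It had 7176 and 3681 RPKM in WT and 1789 and 1941 RPKM under the KO label, from 1432, 574, 537 and 519 reads. The groups did not overlap, but WT library 2 lay closer to the KO-labelled libraries than to WT library 1. In share of reads WT library 2 (0.0893%) was close to KO-labelled library 2 (0.0798%), with 95% Wilson intervals that overlapped. The WT mean was 2.91 times the KO-labelled mean in RPKM and 1.99 times in share. The fitted log2 difference was -1.46 (standard error 0.73), with a 95% interval from -3.26 to 0.34 (adjusted p = 0.676). It was -0.98 without WT library 1 and turned to 0.32 under quantile normalization. Copies of 7SK are many: 226 of its 304 stretches of 28 bases occurred in 37 other genes, which together had 23, 12, 6 and 16 reads. Few reads were thus listed on the copies, and reads left out for mapping to several places cannot be seen in the table.

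The vault RNA was lower under the KO label in the deposited scaling. Vaultrc5 (ENSMUSG00000065145) is a misc_RNA gene of 143 bases at chr18:36801866-36802008 on the plus strand, and it shared no stretch of 28 bases with another annotated gene. It had 1879 and 4334 RPKM in WT and 887 and 1065 RPKM under the KO label, from 162, 292, 115 and 123 reads. The groups did not overlap, and WT library 2 was the highest, as for Rny1. The WT mean was 3.18 times the KO-labelled mean in RPKM and 2.00 times in share. The fitted log2 difference was -1.55 (standard error 0.71), with a 95% interval from -3.31 to 0.20 (adjusted p = 0.676). It was -0.95 without WT library 2 and -0.01 under quantile normalization. Rny1 exceeded Vaultrc5 per base by 427-fold and 430-fold in WT and by 1019-fold and 1035-fold under the KO label. This ratio was 2.40 times higher under the KO label, with no overlap, and its exact permutation p of 0.33 is the smallest the design allows. The closeness of the replicates is not read as precision, since counting error alone was 5.86% to 9.33% of the ratio in each library.

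**Figure D2:**
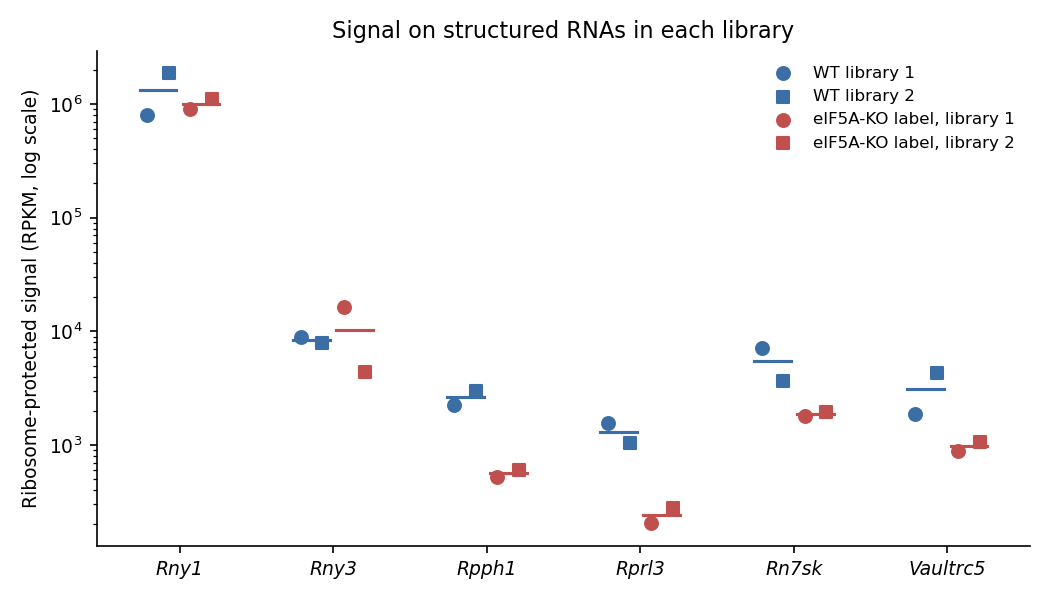
RPKM (log scale) of the 6 RNAs with reads in each library, with blue for WT, red for the KO label, circles for library 1, squares for library 2 and short lines for group means. Rpph1, Rprl3, Rn7sk and Vaultrc5 have both KO-labelled libraries below both WT libraries, whereas Rny1 and Rny3 overlap.

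Ratios of Rny1 to the other RNAs were not all alike between groups. Rny1 exceeded Rpph1 per base by 355-fold and 627-fold in WT and by 1720-fold and 1821-fold under the KO label, a ratio 3.75 times higher with no overlap (exact permutation p = 0.33). Rny1 exceeded Rprl3 by 512-fold and 1793-fold in WT and by 4400-fold and 3973-fold under the KO label, 4.36 times higher with no overlap (exact permutation p = 0.33). For Rn7sk the ratios were 112-fold and 506-fold against 505-fold and 568-fold, and the groups overlapped because WT library 2 matched KO-labelled library 1. Rn7sk per base was 3.17 and 1.24 times Rpph1 in WT and 3.40 and 3.21 times under the KO label, values that all lay close together apart from WT library 2. A ratio shows that a pair of RNAs changed unequally, and not which of them changed.

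**Figure D3:**
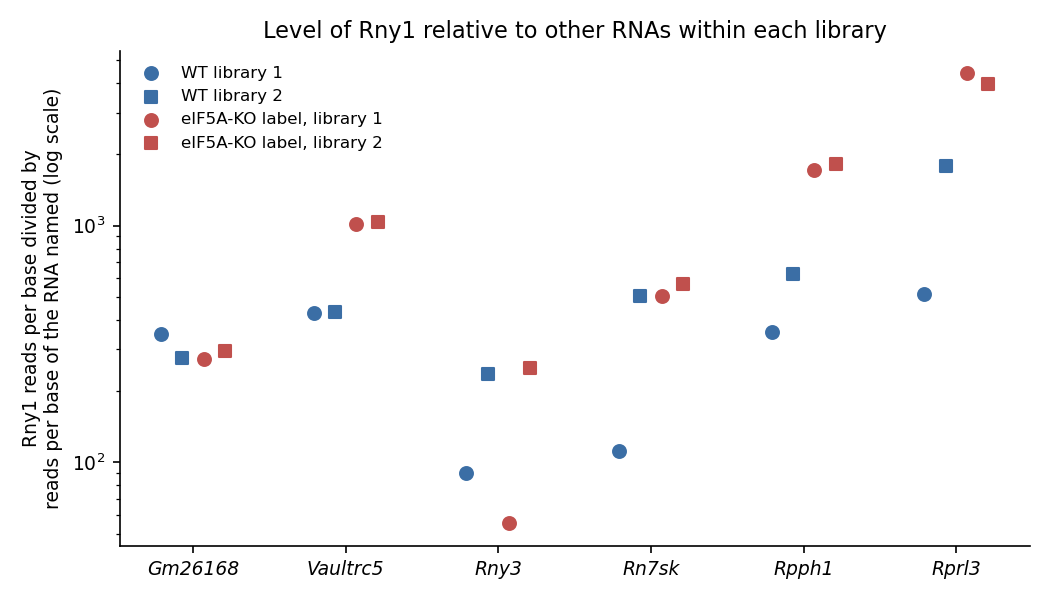
Reads per base on Rny1 divided by reads per base on 6 other RNAs, by library (log scale), with blue for WT, red for the KO label, circles for library 1 and squares for library 2. The ratio to Gm26168 stays between 272 and 347, the ratio to Vaultrc5 is 427 and 430 in WT and 1019 and 1035 under the KO label, and the ratio to Rny3 is scattered within both groups.

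Over the 6 tested RNAs, the count called at an adjusted p under 0.05 was 0 in limma, beside 0.106% of the 11363 genes tested. At an unadjusted p under 0.05, 2 of 6 were lower (Rpph1 and Rprl3) and 0 higher, beside 4.46% of all genes lower. By that rule 30 of 134 snRNA genes, 28 of 155 snoRNA and scaRNA genes and 67 of 291 microRNA genes were lower. So were 12 of the 56 misc_RNA and ribozyme genes tested, which include these 6 RNAs. In 4 of the 6 RNAs both KO-labelled libraries lay below both WT libraries, beside 20.3% of all genes. In limma-voom on the recovered reads, Rpph1 (adjusted p = 0.0343) and Rprl3 (adjusted p = 0.0182) were called lower, beside 0.425% of 9179 genes, and Rn7sk (0.362) and Vaultrc5 (0.230) were not. Leaving out either KO-labelled library left 1 of 6 at an unadjusted p under 0.05, Rprl3.

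In the deposited scaling, lower values under the KO label were common among small noncoding RNAs as a whole. The median log2 fold change was -1.51 over these 6 RNAs, -1.38 over 134 snRNA genes, -1.03 over 155 snoRNA and scaRNA genes and -1.78 over 291 microRNA genes, beside 0.05 over 9877 protein-coding genes and 0.00 over all genes tested. Of 131 snRNA, snoRNA and scaRNA genes with at least 20 reads, 119 were below 0 and 87 had both KO-labelled libraries below both WT libraries. In share of reads the snRNA, snoRNA and scaRNA genes separated less. The microRNA genes did not overlap there, at 4.30% and 16.8% in WT and 2.31% and 2.85% under the KO label. The snRNA genes took 2.56% and 1.39% in WT and 1.30% and 1.499% under the KO label, with overlapping groups, and the snoRNA and scaRNA genes took 1.08% and 0.410% against 0.285% and 0.407%, where WT library 1 stood apart. Of the 131 genes, 17 had a log2 fold change at or below that of Rprl3, 24 at or below that of Rpph1 and 54 at or below that of Rn7sk. The values of the RNase P RNAs were therefore within the range of other small RNA genes, and whether they differed from them as a group was not tested. Rny1 and Rny3, with log2 fold changes of -0.29 and 0.02, were nearer to the protein-coding median.

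The direction of several values depended on how libraries were scaled. The authors' library sizes were 0.930 and 0.733 of the read totals in WT and 1.29 and 1.24 of them under the KO label. Scaling to the same sum of reads moved the median of all genes to 0.50, and scaling on 126 snRNA, snoRNA and scaRNA genes, added after seeing the data, moved it to 1.04. Relative to these medians, Rpph1 stood at -2.08 and -1.94, Rprl3 at -2.30 and -2.16, Rn7sk at -1.34 and -1.20, Vaultrc5 at -1.43 and -1.29, Rny1 at -0.17 and -0.03, and Rny3 at 0.14 and 0.28. Of the 16 alternatives tried, 5 change only the filter, the trend or the block and cannot move a fold change. Under the other 11, Rpph1, Rprl3 and Vaultrc5 were below 0 in 11, Rn7sk in 10, Rny1 in 7 and Rny3 in 3. Quantile normalization, counted among these 11, fixed Rny1 at 0, because Rny1 was the highest row by RPKM in each library.

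**Figure D4:**
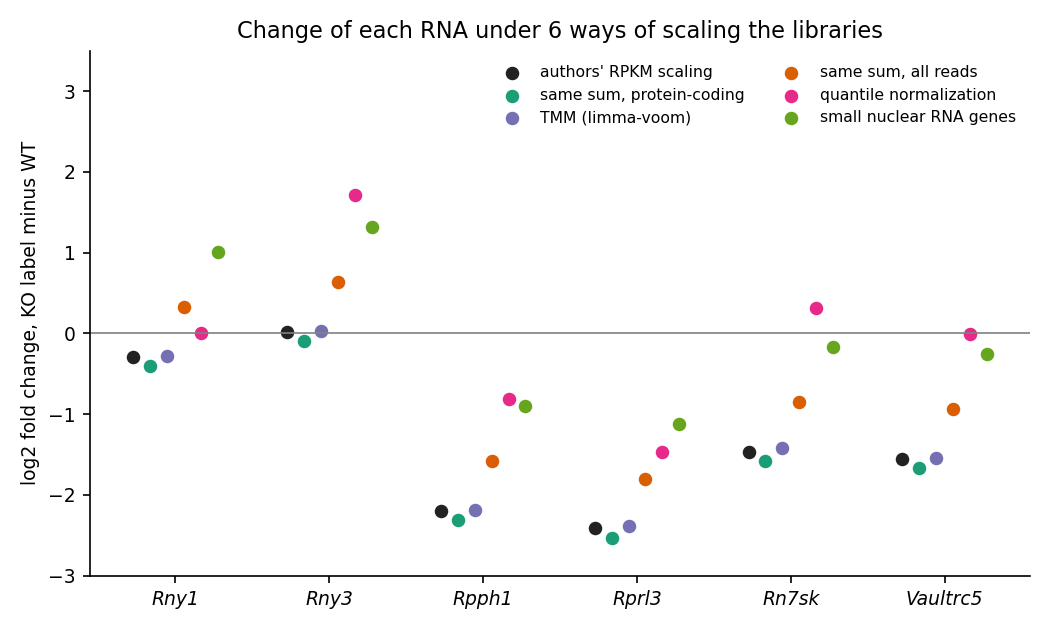
Log2 fold change (KO label minus WT) of the 6 RNAs under 6 ways of scaling the libraries, one colour for each. Rpph1 and Rprl3 lie below 0 under every one of these scalings, whereas Rny1, Rny3 and Rn7sk lie on either side of 0.

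The genes of the proteins that bind these RNAs lay on both sides of 0. Of 34 listed partner genes 30 were tested, 11 below and 19 above 0, with a median log2 fold change of 0.24. At an adjusted p under 0.05, 0 were called in limma and 0 in limma-voom. At an unadjusted p under 0.05, 1 was lower and 2 were higher, beside 4.46% and 2.86% of all genes. The partner genes were thinly read, the median being 65 reads when the libraries were summed.

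Among proteins of the Y RNA particles, Ro60, the ring-shaped protein that binds Y RNAs, had 2.78 and 2.67 RPKM in WT and 3.81 and 3.37 RPKM under the KO label, a log2 fold change of 0.30. Ssb (La), which binds the 3′ ends of new polymerase III transcripts, had 28.4 and 46.2 against 58.2 and 50.4 RPKM, a log2 fold change of 0.57. In both, the KO-labelled libraries lay above both WT libraries, as they did in 20.1% of all genes tested, and the adjusted p was 0.800 and 0.720. Ybx1, the lowest of these genes, lay the other way without overlap, at 41.9 and 40.3 against 24.8 and 26.4 RPKM (log2 fold change -0.66, adjusted p = 0.697). The median over the 5 genes was 0.30, and the highest was Ncl at 0.84.

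The subunits of RNase P and MRP, of which 9 of 11 were tested, spread on both sides of 0 with a median of 0.00. Pop1, the largest subunit of both enzymes, had 1.31 and 3.36 RPKM in WT and 3.20 and 2.94 RPKM under the KO label, with overlapping groups. Pop7 had the lowest log2 fold change of all partners (-1.28), from 5 and 1 reads against 1 and 1. Rpp21 was at -1.26 (unadjusted p = 0.0162, adjusted p = 0.650) from 5, 3, 2 and 2 reads. Rpp30 was at 1.39 (unadjusted p = 0.0113, adjusted p = 0.635) from 6, 5, 25 and 33 reads.

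For 7SK, 6 of 7 listed partners were tested, with a median of 0.03 and the lowest value, -0.36, for Mepce. Larp7, which binds the end of 7SK and stabilizes it, had 8.41 and 8.97 RPKM in WT and 18.6 and 10.5 RPKM under the KO label (log2 fold change 0.63, adjusted p = 0.697). The 3 vault proteins were at 0.39 to 0.45. Mvp, which forms the shell of the vault, had 15.4 and 15.0 against 23.4 and 19.2 RPKM (adjusted p = 0.727). Of 8 telomerase genes 7 were tested, with a median of 0.25. The lowest was Wrap53 at -1.25, from 10, 4, 0 and 12 reads with overlapping groups. Dkc1 (dyskerin), which binds H/ACA RNAs including telomerase RNA, had the highest log2 fold change of all partners, 1.70 (unadjusted p = 0.0107, adjusted p = 0.629), with 1.21 and 3.09 against 7.22 and 10.5 RPKM.

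**Figure D5:**
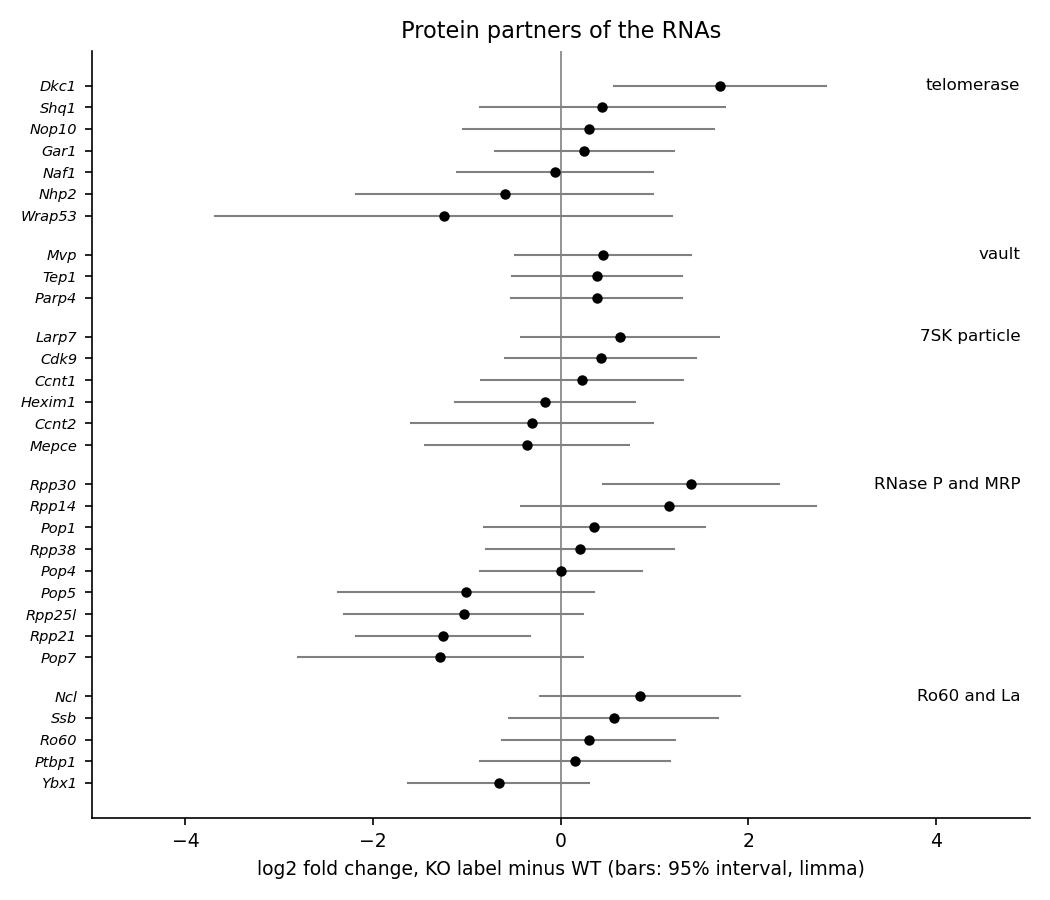
Log2 fold change (KO label minus WT) of the 30 tested partner genes, grouped by particle, with points for estimates and bars for the 95% interval from limma. Intervals of 27 genes cross 0, those of Rpp30 and Dkc1 lie above it and that of Rpp21 below it.

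The genes most like Rny1 over the 4 libraries were all protein-coding. Among 3575 other genes with at least 100 reads, the smallest Euclidean distances between centred log2(RPKM + 1) profiles were those of Ank (0.0912), Spryd3 (0.116), Pacsin2 (0.128), Atg4b (0.154) and H3f3b (0.203). Ank had 7.81 and 18.2 RPKM in WT and 9.16 and 10.97 RPKM under the KO label, the same order of libraries as Rny1. With 4 libraries such a match is a description of these values only.

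Each library held 642429 to 704006 recovered reads, and the Wilson intervals describe sampling of reads alone, as PCR copies of a molecule are counted more than once. Eif5a had 34.9 and 65.2 RPKM in WT and 60.3 and 59.4 RPKM under the KO label. The footprint signal over the whole targeted gene was thus not lower in the libraries labelled KO (log2 fold change 0.32, adjusted p = 0.839 in limma). For satellite cells of the knockout mice, the paper checked the loss by RT-PCR and immunostaining and reported it as successful. All 21 listed cell type markers had reads. Myoblast markers (7 genes) summed to 195 to 248 RPKM in WT and 97.7 to 119 RPKM under the KO label, fibroblast markers (6 genes) to 238 to 419 against 303 to 707 RPKM, endothelial markers (4 genes) to 95.1 to 102 against 106 to 131 RPKM, and immune markers (4 genes) to 28.1 to 38.5 against 23.9 to 24.6 RPKM. In that order, 5, 1, 0 and 2 genes had both KO-labelled libraries below both WT libraries, beside 20.3% of all genes. Both lay above in 0, 2, 3 and 1 genes, beside 20.1% of all genes. The myoblast list includes Myod1, and the paper reports a lower translation efficiency of Myod in eIF5A-KO cells. The part of these marker differences in the lower values of Rpph1, Rprl3, Rn7sk and Vaultrc5 was not tested. In such bulk samples, fewer cells with an RNA and less of it per cell cannot be told apart.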

How the data were processed

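Ribosome-protected fragments of 4 libraries (2 WT, 2 labelled eIF5A-KO, grouped by sample title) were analysed. The titles say Polysome-Seq, whereas the protocol is ribosome profiling with RNase I. The authors removed low-quality, rRNA and tRNA reads, mapped with TopHat2 (mm10) and counted with HTSeq. Strand, overlap and multi-mapping rules are not given in the sources used here. The deposited values were RPKM. RPKM times gene length, divided by its smallest value above 0 in the library (taken as 1 read), was whole for 100% of values in each library (tolerance 0.01). The size of that step gives the authors' library size, which equalled the median-of-ratios size, so it is not the read total.

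log2(RPKM + 1) was tested with limma 3.58.1 (R 4.3.3; eBayes, trend=TRUE, two-sided) on the 11363 genes that averaged 1 RPKM or more, with Benjamini-Hochberg adjustment over all of them. The script was tested on simulated data. Recovered reads were tested with limma-voom as an alternative. Single values were tested by exact two-sided permutation. Other alternatives were a pseudocount of 0.1, other filters and scalings, a replicate block and leaving out each library. A filter of at least 20 reads and scaling on small RNA genes were added after seeing the data. Sequences came from GENCODE M21 transcripts and were compared by global alignment (Biopython 1.88) and by shared 28-base stretches. The members and lists were chosen with earlier results of these data known. Named genes were all members, their nearest copies, the defining partner of each particle, the lowest and the highest of all partners, and the 5 genes most like Rny1. Other partners at an unadjusted p under 0.05 or at the ends of a list were named after their values were seen.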

Additional observations from a re-analysis of the deposited data

How the results depend on the processing

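Scaling and single libraries decided the sign of the values near 0. The log2 fold change of Rny1 (-0.29) became 0.32 at the same sum of reads, 1.00 when scaled on small RNA genes and 0.31 without WT library 2. Those scalings moved the median of all genes to 0.50 and 1.04, and relative to it Rny1 stayed below 0, at -0.17 and -0.03. The log2 fold change of Rny3 (0.02) became -0.10 at the same protein-coding sum, -0.06 without WT library 2 and -0.92 without KO-labelled library 1, against 1.71 under quantile normalization and 1.32 when scaled on small RNA genes. Rn7sk became 0.32 under quantile normalization. Leaving out 1 library at a time gave -0.90 to 0.31 for Rny1, -0.92 to 0.96 for Rny3, -2.40 to -2.002 for Rpph1, -2.71 to -2.12 for Rprl3, -1.94 to -0.98 for Rn7sk and -2.16 to -0.95 for Vaultrc5, where the lone library of a group is assumed to vary like the other group. The share of Rny1 (2.35 points higher) became -0.74 points outside mitochondrial rRNA and -4.17 points with microRNA also left out, and -1.12 to 5.83 points leaving out 1 library. For the RNAs together (2.25 points) these were -0.99, -4.50 and -1.15 to 5.65 points. The log2 ratio of Rny1 to Rny3 (-0.31) ranged from -1.40 to 0.77 leaving out 1 library, with 0.38 without WT library 2.

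At an adjusted p under 0.05 the count of these RNAs was 0, against 2 in limma-voom with the authors' library sizes and 2 with TMM, where Rpph1 (-2.20 and -2.18) and Rprl3 (-2.40 and -2.38) passed. At an unadjusted p under 0.05 the count of 2 became 1 under quantile normalization, 4 in limma-voom, 4 with TMM, 4 with trend=FALSE, 0 when scaled on small RNA genes and 1 to 3 leaving out 1 library. For the partner genes the count of 3 became 7 at the same sum, 11 when scaled on small RNA genes and 0 to 5 leaving out 1 library. The cause of these changes was not tested. Over all 11363 genes, 12 were called with trend=TRUE and 0 with trend=FALSE, and limma-voom called 39 of 9179.

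Replicate numbers are shared between the groups, but nothing shows that they pair the libraries: deviations from the group means of same-numbered libraries had a correlation of 0.06 over genes. With the replicate number as a block, 0 of these RNAs were called (Rpph1 -2.20, adjusted p = 0.625, and Rprl3 -2.41, adjusted p = 0.541), 2 had an unadjusted p under 0.05, and 509 of all genes were lower and 318 higher at that p. Reads over the 4 libraries numbered 1190 on Rpph1 and 535 on Rprl3, and each group had 2 libraries.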
